A study of Mus musculus with 6 samples.

Results

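Matrix metalloproteinases (MMPs), the ADAMTS proteases and ADAMTS-like proteins, and their inhibitors were examined in mouse osteoblasts exposed to corticosterone. The genes were chosen by name: every protein-coding *Mmp*, *Adamts* and *Adamtsl* gene, *Timp1* to *Timp4* and *Reck*, apart from the procollagen N-proteinases *Adamts2*, *Adamts3* and *Adamts14*. Of 48 such genes in the annotation, 36 had a row among the 24016 genes of the deposited table, and the other 12 (*Mmp1b*, *Mmp3*, *Mmp7*, *Mmp10*, *Mmp12*, *Mmp20*, *Mmp21*, *Mmp25*, *Mmp27*, *Adamts8*, *Adamts13* and *Adamts19*) were not analysed here. All libraries came from MC3T3-E1 subclone 4, a single clone of wild-type preosteoblasts derived from mouse calvaria, differentiated for 6 days with β-glycerophosphate (10 mM) and ascorbic acid (50 μg/ml). The 3 vehicle cultures and the 3 cultures given corticosterone at 100 nM, the main glucocorticoid of mice, for 24 h were described as biological replicates, and the labels list calcitriol at 10 nM in the treatment medium.

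MMPs are zinc proteases that cut collagens, gelatins and other matrix proteins outside the cell or, in the membrane-type enzymes, at its surface. ADAMTS proteases include the aggrecanases, which cut the core proteins of large proteoglycans, whereas ADAMTS-like proteins share the matrix-binding domains and lack the protease. TIMPs bind and block MMPs, and *Timp3* also blocks aggrecanases. In bone these enzymes take part in the turnover of osteoid, the release of matrix-bound factors and the shaping of the osteocyte network.

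The values are normalized counts, reads per gene divided by 1 factor per library, with 16020401 to 25638645 reads on genes per library and each corticosterone library shallower than each vehicle library. A count of 3 reads, taken as the floor, corresponds to a normalized count of 2.32 to 3.84, and covers counting error only. Log2 fold changes compare corticosterone with vehicle on log2(normalized count + 0.1) in limma, with p-values adjusted over all 24016 genes, and the threshold was an adjusted p under 0.05 with an absolute log2 fold change over 1. Of 9 osteoblast markers checked, 8 had over 100 reads in each library and *Bglap* had 48 to 311, although 8 of the 9, all but *Spp1*, were lower after corticosterone. The summed markers of macrophages and leukocytes that had a row (2 of 4) reached at most 62.4, of endothelial cells (1 of 3) at most 7.30, of adipocytes (1 of 3) at most 2.56 and of osteoclasts (3 of 3) at most 9.26, while no muscle marker (0 of 2) had a row. The chondrocyte markers that had a row (2 of 3, *Col2a1* and *Sox9* but not *Acan*) summed to 3478 to 3899 with vehicle and 2874 to 2929 with corticosterone. In such bulk RNA, fewer expressing cells and less RNA per cell cannot be told apart.

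Corticosterone changed 5 of the 36 genes past the threshold. *Mmp11* (stromelysin-3) rose, and *Mmp9* (gelatinase B), *Mmp17* (a membrane-type MMP), *Adamts4* (aggrecanase-1) and *Adamts16* fell. The 1 rise stands beside 1.38% of all genes higher past the threshold, and the 4 falls beside 1.4% lower. At an adjusted p under 0.05 with a change of any size, 7 of the 36 genes were higher and 10 lower, against 8.49% and 8.2% of all genes. The higher genes were *Mmp11*, *Mmp14*, *Mmp19*, *Adamts1*, *Adamts12*, *Adamtsl5* and *Timp2*, and the lower were *Mmp9*, *Mmp17*, *Adamts4*, *Adamts6*, *Adamts7*, *Adamts16*, *Adamtsl3*, *Adamtsl4*, *Timp1* and *Timp3*. With the libraries scaled to the same total, the split was 4 higher and 11 lower. The libraries of one treatment lay wholly outside the range of the other in 23 of the 36 genes (8 higher, 15 lower), as in 29.6% of all genes. The median log2 fold change of the 36 genes was -0.18, and that of all genes -0.01. Among the 25 genes with a mean normalized count of at least 100, 16 had an adjusted p under 0.05 (7 higher, 9 lower), against 32.6% of the 10558 genes at that level. *Mmp11*, *Mmp9*, *Mmp17* and *Adamts4* were past the threshold whichever library was left out. The number of higher genes at an adjusted p under 0.05 was 3 without vehicle library 3, corticosterone library 2 or corticosterone library 3, and 4 without corticosterone library 1. Past the full threshold 2 genes were higher without vehicle library 2, where *Timp4* joined, and without corticosterone library 1, where *Adamts15* joined, both of which have at most 4 reads in a library. The forest plot of log2 fold changes shows the members by role.

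**Figure D1:**
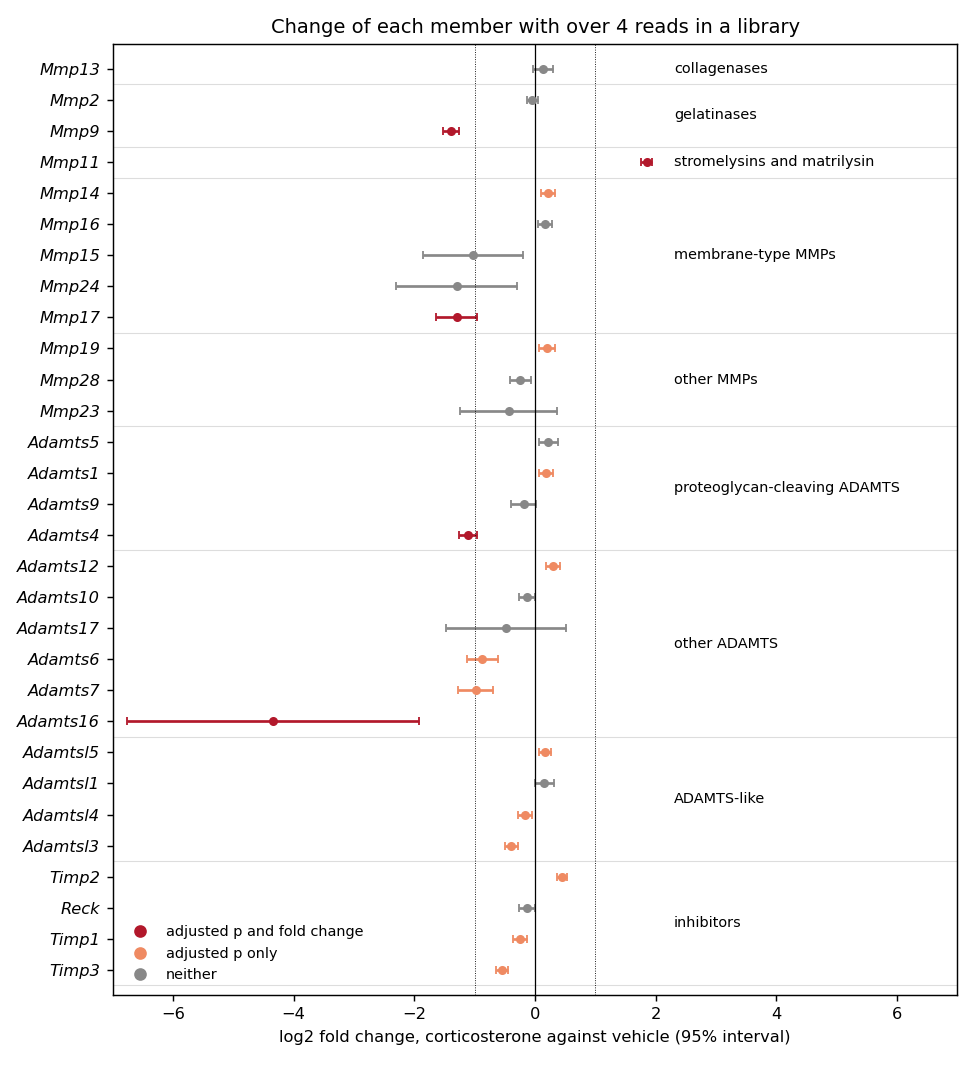
Log2 fold change of each gene with over 4 reads in at least 1 library (x axis, corticosterone against vehicle) with its 95% interval from limma, for 30 of the 36 genes grouped by role. Red marks genes past the adjusted p and the fold change, orange those past the adjusted p only, grey the others, and dotted lines a log2 fold change of 1 in either direction. *Mmp11* lies alone at the right, and *Adamts16* has the widest interval.

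*Mmp11* (ENSMUSG00000000901, chromosome 10, 75923222 to 75936496 of GRCm38, minus strand) encodes stromelysin-3, which unlike most secreted MMPs is activated inside the cell by furin. Its promoter (RefSeq, GRCm38.p6) is shown because, of the genes past the threshold, only *Mmp11* had a promoter window. *Mmp9*, *Mmp17*, *Adamts4* and *Adamts16* had none, so their promoters were not searched. The window holds the 250 bases before the RefSeq transcription start, at chr10:75932503-75932752 on the minus strand, written 5′ to 3′ in the direction of transcription. Capitals mark the AGAACA hexamer, the arm of the palindrome that the glucocorticoid receptor binds.

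Mmp11: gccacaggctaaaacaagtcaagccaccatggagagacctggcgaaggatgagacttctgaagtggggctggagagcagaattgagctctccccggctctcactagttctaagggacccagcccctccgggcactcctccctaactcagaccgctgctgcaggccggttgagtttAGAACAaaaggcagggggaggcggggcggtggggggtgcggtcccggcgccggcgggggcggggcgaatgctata

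The hexamer begins 75 bases before the start. The GENCODE gene reaches further upstream than this start. Both strands were searched for the hexamer, for its inverted repeat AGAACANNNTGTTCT, for the AP-1 motif TGANTCA and for the RUNX motif ACCACA, where N is any base and the repeat contains the hexamer on each strand. The hexamer lay in 3 of the 24 windows available for 23 of the 36 genes, and in 16.1% of all 32851 windows of this length. The repeat was in none of the 24 and in 0.00913% of all windows.

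In the vehicle libraries *Mmp11* had normalized counts of 1851, 1761 and 1798, and in the corticosterone libraries 6218, 6557 and 6706. Each corticosterone library lay far above each vehicle library, and the libraries of a treatment lay close together. The mean went from 1803 ± 45.6 to 6494 ± 250.0 (mean ± SD of 3 libraries each), 3.60 times as high, with a log2 fold change of 1.85 ± 0.04 (SE, adjusted p = 5.5e-14, limma). Leaving out any 1 library kept it between 1.82 and 1.88. A stretch of 5.58% of its exon bases also belongs to *Chchd10* on the opposite strand, which had 25.1, 18.5 and 22.8 with vehicle and 52.5, 60.7 and 32.0 with corticosterone, and whether the counting used the strand is not given in the sources used here. *Chchd10* thus reached at most 60.7 in a library, where *Mmp11* had at least 1761. The part of the shared stretch in the value of *Mmp11* was not tested.

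**Figure D2:**
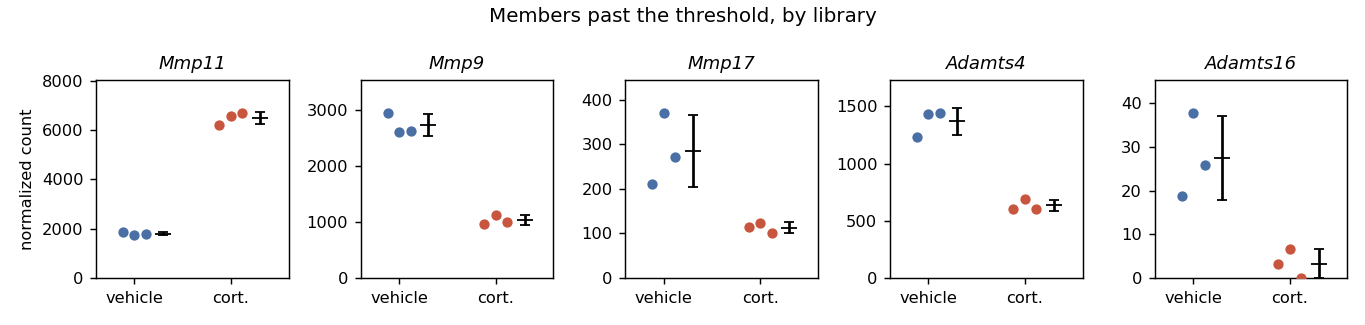
Normalized count (y axis, linear from 0) of the 5 genes past the threshold in each library, with vehicle in blue, corticosterone (cort.) in red and the mean ± SD of 3 libraries as a bar. In each panel the groups do not overlap, with *Mmp11* higher and *Mmp9*, *Mmp17*, *Adamts4* and *Adamts16* lower after corticosterone.

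The gelatinases *Mmp2* and *Mmp9* cut denatured collagen and type IV collagen. Of this pair only *Mmp9* passed the test, and the difference between their changes was not tested. *Mmp9* (ENSMUSG00000017737, chromosome 2, 164940780 to 164955850 of GRCm38, plus strand) had normalized counts of 2958, 2610.3 and 2629 with vehicle and 974, 1129.9 and 1006 with corticosterone. The corticosterone libraries were all below the vehicle libraries. Its mean fell by 62.1%, from 2733 ± 196 to 1037 ± 82.3 (mean ± SD of 3 libraries each), a log2 fold change of -1.40 ± 0.06 (SE, adjusted p = 1.3e-10, limma), and between -1.46 and -1.34 with a library left out. *Mmp9* is also known as a product of osteoclasts and macrophages. The osteoclast markers *Acp5*, *Oscar* and *Calcr* summed to at most 9.26 in any library. The macrophage markers *Cd68* and *Csf1r* summed to at most 62.4, while *Ptprc* and *Adgre1* had no row. *Ctsk*, a protease also made by osteoclasts, had normalized counts of 1412 to 1953. The cell source of *Mmp9* was not tested. *Mmp2*, gelatinase A, is far more abundant, with 32948, 36688 and 35279.7 with vehicle and 33603, 33841 and 34207 with corticosterone. Its groups overlapped, and the log2 fold change of -0.04 ± 0.04 (SE, adjusted p = 0.59, limma) had a 95% interval of -0.13 to 0.04.

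Of the collagenases, which cut fibrillar collagen, *Mmp13* had normalized counts of 2543, 3176 and 2993 with vehicle and 3242, 3497 and 2808 with corticosterone. The groups overlapped, with a log2 fold change of 0.13 ± 0.08 (SE, adjusted p = 0.33, limma) and a 95% interval of -0.03 to 0.30. *Mmp13* is a textbook target of RUNX2 and AP-1 in osteoblasts, and *Runx2* itself had a log2 fold change of -1.16 (limma adjusted p = 1.6e-10) in these libraries. The sequence before its start is shown for these motifs and was chosen after the values were seen. It covers the 250 bases at chr9:7272264-7272513 on the plus strand (RefSeq, GRCm38.p6), with the RUNX motif, which begins 118 bases before the start, and the AP-1 motif, which begins 35 bases before it, in capitals.

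Mmp13: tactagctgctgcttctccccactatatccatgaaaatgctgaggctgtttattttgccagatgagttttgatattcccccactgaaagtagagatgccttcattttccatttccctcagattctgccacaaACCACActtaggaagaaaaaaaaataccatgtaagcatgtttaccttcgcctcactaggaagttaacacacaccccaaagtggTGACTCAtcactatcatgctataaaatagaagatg

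No other window of the 24 held the AP-1 motif, which is in 6.75% of all windows. The RUNX motif was in 3 of the 24, those of *Mmp13*, *Mmp14* and 1 of *Mmp23*, and in 14.0% of all windows. Neutrophil collagenase *Mmp8* had at most 4 reads in a library.

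The membrane-type MMPs sit on the cell surface, where *Mmp14* (MT1-MMP) cuts collagen and activates pro-MMP2. *Mmp17* (ENSMUSG00000029436, chromosome 5, 129584169 to 129611099 of GRCm38, plus strand), which is anchored by a lipid, had normalized counts of 211, 370.5 and 272 with vehicle and 115, 124 and 99.8 with corticosterone. The 3 corticosterone libraries lay below the range of the vehicle libraries, while the vehicle libraries varied more among themselves. The mean went from 284 ± 80.5 to 113 ± 12.1 (mean ± SD of 3 libraries each), a log2 fold change of -1.30 ± 0.16 (SE, adjusted p = 1.7e-05, limma), and without 1 library the change lay between -1.50 and -1.09 (adjusted p up to 0.045). *Mmp14* had 13859, 16679.8 and 14787 with vehicle and 17076, 17923 and 17466 with corticosterone. The groups were apart by a narrow margin, and the log2 fold change of 0.22 ± 0.05 (SE, adjusted p = 0.0096, limma) kept an adjusted p under 0.05 only without vehicle library 2 (0.020), against 0.19 to 0.27 in the other 5 fits with a library left out. *Mmp16* had 942, 878 and 874 with vehicle and 988, 1023 and 994 with corticosterone, with the groups apart and a log2 fold change of 0.16 ± 0.06 (SE, adjusted p = 0.065, limma). *Mmp15* and *Mmp24*, both scarce, had log2 fold changes of -1.03 (limma adjusted p = 0.090) and -1.30 (limma adjusted p = 0.075) from 9 to 41 and 5 to 21 reads per library. On the whole reads *Mmp24* had an adjusted p of 0.020 with edgeR and 0.13 with DESeq2. Of its exon bases, 13.6% overlap *BC029722* on the opposite strand, which had 1210 to 1831 reads per library. The part of these reads in the value of *Mmp24* was not tested.

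Among the other MMPs, *Mmp19* had normalized counts of 663, 662 and 606 with vehicle and 719, 753 and 743 with corticosterone, a log2 fold change of 0.20 ± 0.06 (SE, adjusted p = 0.036, limma) that was lost without any 1 of the 6 libraries (adjusted p up to 0.13). Of its exon bases, 28.3% overlap other genes, chiefly *Tmem198b* on the opposite strand, which had 465, 450.0 and 463 with vehicle and 556, 542 and 613 with corticosterone. The part of these reads in the value of *Mmp19* was not tested. *Mmp28* (epilysin) had 506, 623 and 550.3 with vehicle and 444, 474 and 498 with corticosterone, with a log2 fold change of -0.24 ± 0.08 (SE, adjusted p = 0.051, limma). Its groups were apart, and its adjusted p was 0.039 with the replicate number as a block. The adjusted p was 0.035 with edgeR, 0.068 with DESeq2 and 0.018 to 0.30 over the limma settings with all libraries. With a library left out it was 0.084 to 0.33. Of the exon bases of *Mmp28*, 12.0% overlap *1700020L24Rik* on the opposite strand, which had 91 to 189 reads per library. The part of these reads in the value of *Mmp28* was not tested. *Mmp23* had 27.6, 40.9 and 22.8 with vehicle and 13.9, 38.7 and 19.2 with corticosterone, with a log2 fold change of -0.44 ± 0.38 (SE, adjusted p = 0.54, limma) and overlapping groups.

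Of the 6 proteoglycan-cleaving ADAMTS genes, *Adamts4* fell and *Adamts1* rose. *Adamts4* (ENSMUSG00000006403, chromosome 1, 171250421 to 171260637 of GRCm38, plus strand) had normalized counts of 1237, 1432 and 1445 with vehicle and 606, 694 and 603 with corticosterone. The groups were well apart. The mean fell by 53.8%, from 1371 ± 117 to 634 ± 51.6 (mean ± SD of 3 libraries each), with a log2 fold change of -1.11 ± 0.07 (SE, adjusted p = 9.7e-09, limma) that stayed between -1.18 and -1.07 without any 1 library. *Adamts1*, which also cuts versican, had 5723, 6814 and 6112 with vehicle and 7092, 7209 and 6732 with corticosterone. Corticosterone library 3 lay below vehicle library 2. The log2 fold change of 0.18 ± 0.05 (SE, adjusted p = 0.034, limma) kept an adjusted p under 0.05 only without vehicle library 2 (0.042), against up to 0.36 in the other fits. *Adamts5* (aggrecanase-2), with 696, 590.4 and 598 with vehicle and 693, 723 and 775 with corticosterone, had a log2 fold change of 0.22 ± 0.07 (SE, adjusted p = 0.050, limma) and overlapping groups. This was not under 0.05, while the adjusted p was 0.037 with edgeR, 0.074 with DESeq2 and 0.016 to 0.31 over the other limma settings with all libraries, and without vehicle library 1 it was 0.040. *Adamts9* had a log2 fold change of -0.19 (limma adjusted p = 0.22), and *Adamts15* and *Adamts20* had at most 4 reads in a library. Within a library, the per-length level of *Adamts1* was 3.84 to 4.32 times that of *Adamts4* with vehicle and 9.43 to 10.6 times with corticosterone.

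Among the 7 other ADAMTS genes, *Adamts6*, *Adamts7* and *Adamts16* fell and *Adamts12* rose. *Adamts16* (ENSMUSG00000049538, chromosome 13, 70727802 to 70841811 of GRCm38, minus strand) had 23, 49 and 25 reads with vehicle and 3, 6 and 0 with corticosterone. These are normalized counts of 18.7, 37.8 and 25.9 with vehicle and 3.21, 6.63 and 0 with corticosterone, so that the groups were apart, with 2 of the 3 corticosterone libraries at or below the floor of 3 reads. Its log2 fold change of -4.34 ± 1.14 (SE, adjusted p = 0.013, limma) depended on the pseudocount, being -3.11 at 1 and -5.46 at 0.01 (adjusted p = 0.091), and with a library left out its adjusted p was under 0.05 only without corticosterone library 3 (0.040), and 0.11 to 0.34 in the other 5 fits. The count tests gave -2.97 with edgeR (adjusted p = 5.9e-04) and -3.02 with DESeq2 (adjusted p = 1.5e-04). *Adamts7*, which cuts cartilage oligomeric matrix protein, had 182, 151 and 142 with vehicle and 74.9, 80.6 and 83.2 with corticosterone, a separation of the groups with a log2 fold change of -0.99 ± 0.14 (SE, adjusted p = 6.4e-05, limma), just inside the fold threshold. It was past that threshold without vehicle library 2, vehicle library 3 or corticosterone library 3, with a log2 fold change of -1.02, -1.06 and -1.02. *Adamts6*, with 206, 259 and 229.6 with vehicle and 123, 140.3 and 115 with corticosterone, had a log2 fold change of -0.87 ± 0.12 (SE, adjusted p = 5.0e-05, limma), again with the groups apart. In contrast, *Adamts12* was higher in each corticosterone library than in any vehicle library, with 1307, 1215 and 1347 with vehicle and 1566, 1615 and 1563 with corticosterone and a log2 fold change of 0.30 ± 0.05 (SE, adjusted p = 6.1e-04, limma). *Adamts10*, which binds fibrillin, had 1167, 1365 and 1208 with vehicle and 1140.2, 1151 and 1105 with corticosterone, a log2 fold change of -0.14 ± 0.06 (SE, adjusted p = 0.16, limma). *Adamts17* had -0.48 (adjusted p = 0.60, limma) from few reads, and *Adamts18* had at most 4 reads in a library.

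The ADAMTS-like genes encode matrix proteins without a protease, several of which bind fibrillin microfibrils. *Adamtsl3* had normalized counts of 3498, 3013 and 3239 with vehicle and 2441, 2433 and 2527 with corticosterone, with the groups apart and a log2 fold change of -0.40 ± 0.05 (SE, adjusted p = 3.4e-05, limma). For *Adamtsl4* the counts were 1607, 1648 and 1589 with vehicle and 1391, 1402 and 1527 with corticosterone, a log2 fold change of -0.17 ± 0.05 (SE, adjusted p = 0.035, limma) that, among the fits with a library left out, passed only without corticosterone library 3 (0.024, against up to 0.18). *Adamtsl5* had 3031, 3239 and 3061 with vehicle and 3429, 3442 and 3577 with corticosterone, a log2 fold change of 0.16 ± 0.04 (SE, adjusted p = 0.015, limma) that passed only without vehicle library 2 among those fits (0.021, against up to 0.11). The groups were apart in each of these 3 genes. *Adamtsl1* had a log2 fold change of 0.16 (limma adjusted p = 0.21), and *Adamtsl2* had at most 4 reads in a library.

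The inhibitors split by member. *Timp2* (ENSMUSG00000017466, chromosome 11, 118301069 to 118355740 of GRCm38, minus strand), which both blocks MMPs and helps MT1-MMP to activate pro-MMP2, had normalized counts of 51940.3, 51828 and 51979 with vehicle and 70513, 69739 and 71690.5 with corticosterone. The vehicle libraries were nearly equal, and the corticosterone libraries all stood above them. The mean went from 51916 ± 78.7 to 70647 ± 983 (mean ± SD of 3 libraries each), an increase of 36.1% and a log2 fold change of 0.44 ± 0.04 (SE, adjusted p = 1.3e-07, limma). *Timp3* (ENSMUSG00000020044, chromosome 10, 86300372 to 86349506 of GRCm38, plus strand), the matrix-bound inhibitor, moved the other way, with 8941, 8416 and 8262 with vehicle and 5647, 5755 and 6116 with corticosterone. Its groups were apart too. The mean fell by 31.6%, from 8539.7 ± 356 to 5839 ± 246 (mean ± SD of 3 libraries each), a log2 fold change of -0.55 ± 0.04 (SE, adjusted p = 1.2e-07, limma). *Timp3* lies within the *Syn3* gene, and 21.3% of its exon bases also belong to *Syn3* on the opposite strand, whose normalized counts were 24.3, 40.9 and 22.8 with vehicle and 5.35, 17.7 and 17.9 with corticosterone. *Timp1*, a broad MMP inhibitor, had 2883, 3086 and 2625 with vehicle and 2487, 2422 and 2321 with corticosterone, and its groups were apart. Its log2 fold change of -0.25 ± 0.06 (SE, adjusted p = 0.0046, limma) was under an adjusted p of 0.05 without vehicle library 3 (0.028) but not without any other library (0.10 to 0.16). *Reck*, a membrane-anchored inhibitor of MMP2, MMP9 and MMP14, had 651, 617 and 676 with vehicle and 595, 584 and 594 with corticosterone, with the groups apart and a log2 fold change of -0.13 ± 0.06 (SE, adjusted p = 0.19, limma). *Timp4* had 0 to 4 reads per library, too few for a comparison.

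**Figure D3:**
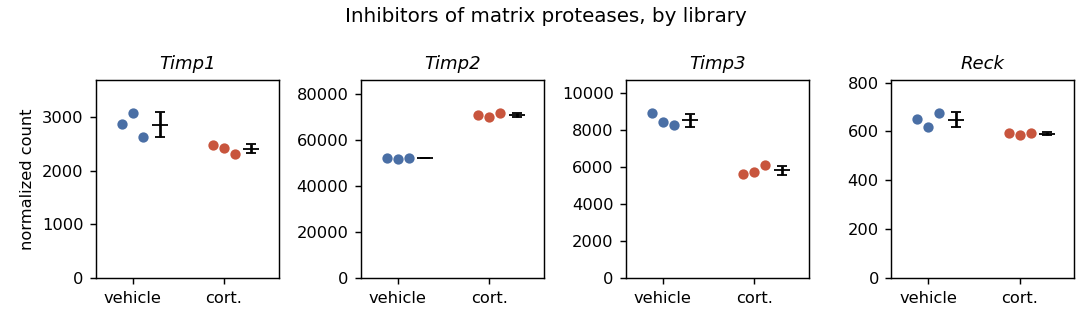
Normalized count (y axis, linear from 0) of *Timp1*, *Timp2*, *Timp3* and *Reck* in each library, with vehicle in blue, corticosterone (cort.) in red and the mean ± SD of 3 libraries as a bar. *Timp2* is higher in each corticosterone library, and *Timp1* and *Timp3* are lower.

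Levels were compared between genes per kilobase (kb) of exon, as the median normalized count per kb in each treatment, and are a description with no test. With vehicle, *Timp2* (13332) and *Mmp2* (10466) led, followed by *Timp1* (3246), *Mmp14* (2481), *Adamts1* (1153), *Mmp13* (1119.9), *Timp3* (1033), *Mmp9* (743), *Adamtsl5* (648) and *Mmp11* (647). The ranges of the 3 vehicle libraries overlapped in 18 of the 35 pairs of neighbours in this order, among them *Adamts1* with *Mmp13*, *Mmp13* with *Timp3*, and *Adamtsl5* with *Mmp11*. *Mmp11* went from rank 10 to rank 5 after corticosterone (2360.4 per kb), and *Mmp9* from 8 to 12 (284 per kb). With the length of the longest transcript the same 10 genes led in another order, with *Mmp14* (4567) above *Timp1* (3265), *Timp3* (1782) above *Adamts1* and *Mmp13*, and *Mmp11* above *Adamtsl5*.

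**Figure D4:**
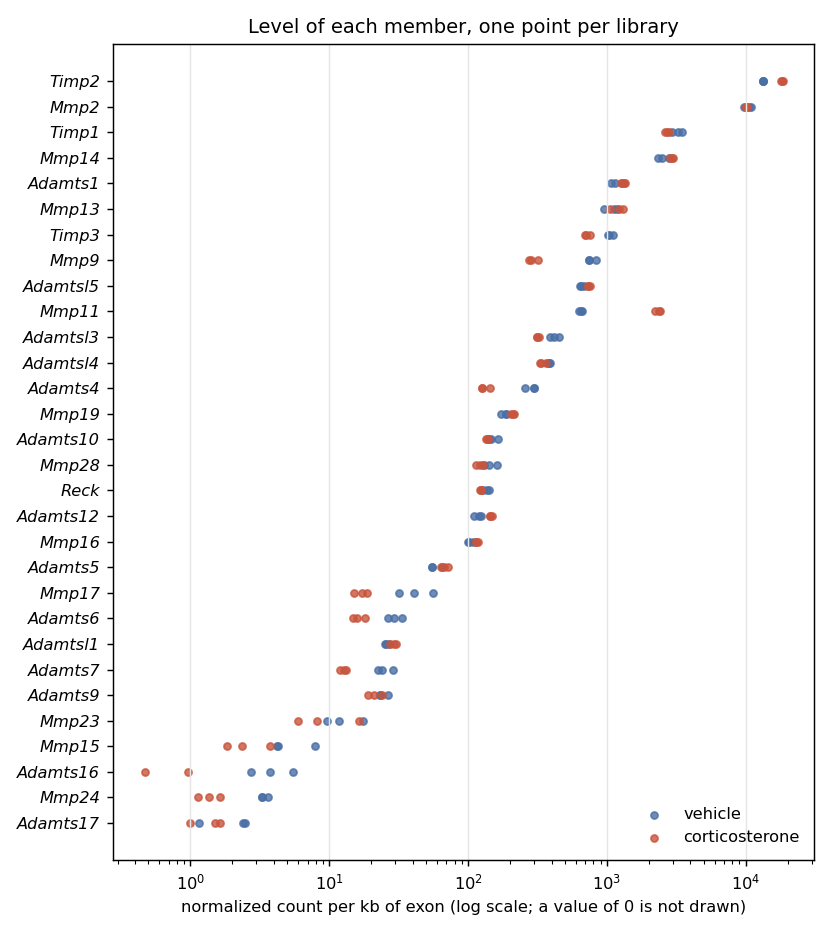
Normalized count per kb of exon (x axis, log scale) in each library for the 30 genes with over 4 reads in a library, ordered by the vehicle median, with vehicle in blue and corticosterone in red. *Timp2* and *Mmp2* stand at the top in both treatments, and *Mmp11* and *Mmp9* show the widest gaps between treatments among the 10 most abundant genes.

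Within each library these levels were also set against one another, again with no test. *Mmp11* was at 0.797, 0.859 and 0.871 times the level of *Mmp9* in the vehicle libraries and at 8.13, 7.39 and 8.50 times in the corticosterone libraries. *Mmp9* was thus above *Mmp11* in each vehicle library and below it in each corticosterone library. *Mmp2* made up 64.9% to 65.7% of the summed per-kb level of all *Mmp* genes with vehicle and 57.3% to 58.6% with corticosterone, and *Mmp11* 3.78% to 4.43% and 13.2% to 13.9%. With the length of the longest transcript the share of *Mmp2* was 58.2% to 59.2% with vehicle and 50.7% to 52.0% with corticosterone. That of *Mmp11* was 3.75% to 4.43% and 12.9% to 13.7%. *Timp2* made up 74.7% to 77.1% of the summed *Timp* level with vehicle and 83.8% to 84.5% with corticosterone. Its level was 12.1 to 13.2 times that of *Timp3* with vehicle and 24.5 to 26.1 times with corticosterone, or 7.40 to 8.01 and 14.9 to 15.9 times with the length of the longest transcript. The summed *Timp* level was 1.06 to 1.18 times the summed *Mmp* level with vehicle and 1.22 to 1.27 times with corticosterone, or 0.939 to 1.05 and 1.05 to 1.10 times with the longest transcript.

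**Figure D5:**
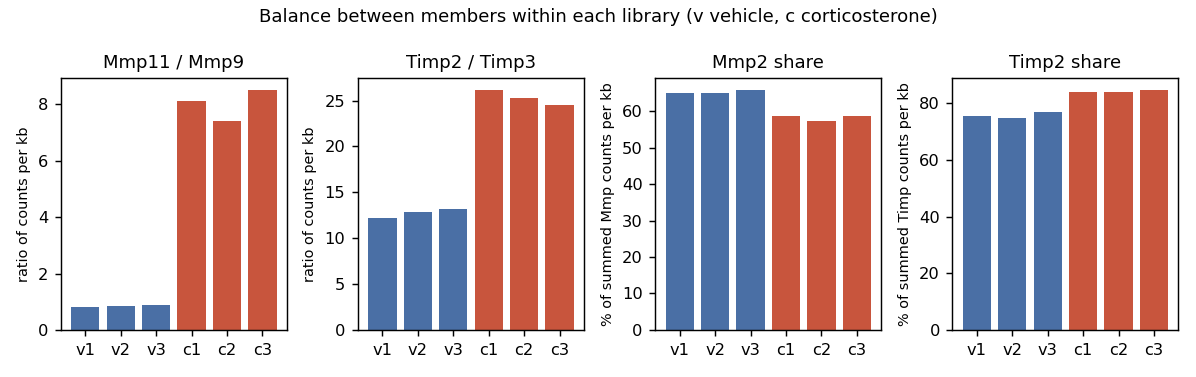
Bars (linear from 0) for each vehicle (v, blue) and corticosterone (c, red) library of the ratio of *Mmp11* to *Mmp9* and of *Timp2* to *Timp3* in normalized counts per kb, and of the share of *Mmp2* in the summed *Mmp* and of *Timp2* in the summed *Timp* counts per kb. In each panel the 3 corticosterone libraries lie on one side of the 3 vehicle libraries.

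Genes that activate or clear these enzymes were counted from a list of 13, of which 12 had a row (all but *Plg*, plasminogen). Of these, 4 were higher and 3 lower at an adjusted p under 0.05, against 8.49% and 8.2% of all genes. Among all genes with a mean normalized count of at least 100, 32.6% had such an adjusted p in either direction. The median log2 fold change of the listed genes was 0.02. *Plat*, tissue plasminogen activator, fell past the threshold, with 1229, 1497 and 1253 with vehicle and 626, 663 and 622 with corticosterone and a log2 fold change of -1.05 ± 0.07 (SE, adjusted p = 1.5e-08, limma). The groups were well apart. Among the others, the higher genes included *Lrp1* (0.72), an endocytic receptor that clears MMPs and TIMPs, *Sdc4* (0.49) and *Furin* (0.20), the convertase that activates MT-MMPs and stromelysin-3, and the lower were *Plau* (-0.71), urokinase, and *Cd44* (-0.57), all log2 fold changes with a limma adjusted p under 0.05. With a library left out, *Furin* kept it in 2 of 6 fits (adjusted p up to 0.064) and the other genes named from this list in all.

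Of 9 proteoglycan and microfibril substrates or partners, 8 had a row (all but *Acan*). *Ltbp1* (0.41), a carrier of latent TGF-β, was higher and *Fbn1* (-0.36), *Fbn2* (-0.26) and *Fn1* (-0.29), which encode fibrillins and fibronectin, were lower, on the log2 scale at a limma adjusted p under 0.05. With a library left out, *Fbn2* kept it in 0 of 6 fits (adjusted p up to 0.20) and the other 3 genes in all. The 1 higher and 3 lower genes stand beside 8.49% and 8.2% of all genes at that adjusted p. For genes with a mean normalized count of at least 100, the share in either direction was 32.6%. None of the 8 passed the threshold, and their median log2 fold change was -0.32. For any single gene named here, a two-sided exact permutation test of 3 libraries against 3 could not go below p = 0.1.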

How the data were processed

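RNA-seq libraries were made with the NEBNext Ultra RNA kit from 3 vehicle and 3 corticosterone cultures. The authors deposited 1 non-negative signal per gene and library, named FPKM, on the mm10 build per the labels; the aligner, counter and strand setting are not given in the sources used here. In every library 100% of the values were multiples of a single unit, within 0.01 read, so the deposited signal holds counts divided by a size factor, and whole reads were recovered. The design had assumed FPKM values and was kept. The main test was limma 3.58.1 (R 4.3.3, variance trend) on log2(value + 0.1). A minimum mean of 0.1 removed no gene. P-values had Benjamini-Hochberg adjustment. Alternatives were edgeR 4.0.16 and DESeq2 1.42.0 on the reads, other pseudocounts, filters, prior variances and scalings, a replicate block, and leaving out each library. The main limma fit, edgeR without a block and DESeq2 were tested on simulated data, and the other settings were not. The authors used DESeq2. Symbols, coordinates and exon lengths came from GENCODE M21 (GRCm38), which left 8 identifiers unmatched. Any member could be named; the 3 most abundant of each class, the inhibitors and those past the threshold got values in every library, and listed partners past the threshold were to be named, beside those with an adjusted p under 0.05. The members and lists were chosen with earlier results of these data known. No 2 libraries were duplicates, and the first principal component (31.4% of the variance) separated the treatments. The values of 2 genes outside the members are not reported here, though both entered the fits and the list counts.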

Additional observations from a re-analysis of the deposited data

How the results depend on the processing

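Without a variance trend the number of genes higher at an adjusted p under 0.05 went from 7 to 2 (*Mmp11* and *Timp2*), with the libraries scaled to the same total it went to 4, and with a library left out it lay between 3 and 7. The cause was not tested. Past the full threshold 1 to 2 genes were higher and 3 to 5 lower with a library left out, and 7 to 9 were lower at an adjusted p under 0.05. The median log2 fold change of all genes was -0.01, and -0.05 with the same total. Of 624 single-gene results under the alternatives, 540 stayed on their side of the adjusted p, 32 came under 0.05 and 52 lost it. The sign changed in 6 of the 540, all of *Mmp8* and *Adamts18*, which have at most 4 reads in a library and did not pass the test. An adjusted p under 0.05 held for 10 of the 17 genes in all 6 fits with a library left out. These fits have fewer samples. *Adamts16* also lost it without a variance trend (0.27) and with a robust prior variance (0.22). With the replicate block, 7 genes were higher and 11 lower at an adjusted p under 0.05, with *Mmp28* added and the other calls shared, and 1 and 4 past the threshold. The labels give shared replicate numbers without saying that they pair cultures, and the deviations of same-numbered libraries correlated by 0.0375, 0.0610 and 0.0198 over 11480 genes. Over all genes, edgeR called 283 higher and 271 lower past the threshold, and DESeq2 269 and 245, against 331 and 337 with limma. Over the longest transcript the vehicle level per kb was 14004 for *Timp2*, against 13332, and over 1.5 times as high for 7 members, among them *Mmp14* (4567 against 2481), *Timp3* (1782 against 1033) and *Adamts10* (293 against 146). Depth limits the 6 members with at most 4 reads in each library, where no change was detectable in the fit of all 6 libraries, and the 30 others received a result from edgeR and DESeq2.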

Other observations

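Other matrix and shedding proteases were counted from a list of 15 genes, all with a row, as a description beside the MMP and ADAMTS genes. At an adjusted p under 0.05, 5 were higher and 1 lower, against 8.49% and 8.2% of all genes. Among all genes with a mean normalized count of at least 100, 32.6% had such an adjusted p in either direction. None of these 6 was past a log2 fold change of 1, and the median over all 15 was -0.01. The higher genes were the membrane-bound sheddases *Adam9* (0.54, adjusted p = 2.6e-07), *Adam12* (0.19, adjusted p = 0.0058) and *Adam17* (0.50, adjusted p = 2.5e-06), the last known for releasing TNF-α, and the lysosomal cathepsins *Ctsb* (0.48, adjusted p = 6.6e-08) and *Ctsl* (0.42, adjusted p = 2.9e-06), each given as a log2 fold change with limma's adjusted p. With a library left out, *Adam12* kept its adjusted p under 0.05 in 2 of 6 fits (up to 0.10) and the other 4 in all. *Ctsk*, cathepsin K, the main collagen-cutting protease of osteoclasts, had normalized counts of 1786, 1953 and 1817 with vehicle and 1427, 1473 and 1412 with corticosterone and a log2 fold change of -0.36 ± 0.05 (SE, adjusted p = 5.3e-05, limma). *Bmp1*, the procollagen C-proteinase, had a log2 fold change of -0.09 (limma adjusted p = 0.24).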
